A study of Homo sapiens with 9 samples.

Results

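The ligands of the EGF family AREG, EREG, HBEGF, TGFA, BTC, EPGN and NRG1 were followed in MDA-MB-231 cells exposed to the copper chelator TEPA. They were taken by gene symbol from the table of raw counts, where all 7 were present among 59453 gene names. MDA-MB-231 is an established human triple-negative breast cancer line, grown here in DMEM with 10% FBS in every group. RNA-Seq covered 3 untreated libraries, 3 libraries after 8 h of TEPA and 3 libraries after 24 h. The labels give 8 mM TEPA for this line, whereas the sequencing methods of the study give 4 mM. Its section on treatments names both 4 mM and 8 mM for RNA-Seq of this line. One untreated group served both times, so that time in culture cannot be told apart from the treatment.

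EGF family ligands are made as membrane-anchored precursors and are cut free by cell-surface proteases, chiefly ADAM17 and ADAM10. Released ligand binds an ErbB receptor tyrosine kinase, which pairs with another ErbB receptor and signals through RAS and ERK and through PI3K and AKT. TGFA, AREG and EPGN bind EGFR, HBEGF, EREG and BTC bind EGFR and ERBB4, and NRG1 binds ERBB3 and ERBB4.

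The genes EPGN, EREG, AREG and BTC form a cluster on chromosome 4 that spans 486054 bases (hg38). EPGN lies at 74308470 to 74316789, EREG at 74365145 to 74388749, AREG at 74445136 to 74455005 and BTC, on the other strand, at 74744759 to 74794523. EREG and AREG are separated by 56386 bases. HBEGF is on chromosome 5 (140332843 to 140346603) and TGFA on chromosome 2 (70447284 to 70554193).

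The promoters of TGFA, EREG, HBEGF and AREG are shown because these 4 ligands were lower after 8 h of TEPA. Each runs from 250 bases before to 50 bases after the start site in RefSeq (GRCh38.p14), and lies at chr4:74444886-74445185, plus strand (AREG), chr4:74364895-74365194, plus strand (EREG), chr5:140346554-140346853, minus strand (HBEGF) and chr2:70553777-70554076, minus strand (TGFA). Capitals mark matches on either strand to a CRE (TGACGTCA), an AP-1 site (TGANTCA), an Sp1 box (GGGCGG) or a TATA box (TATAAA).
AREG: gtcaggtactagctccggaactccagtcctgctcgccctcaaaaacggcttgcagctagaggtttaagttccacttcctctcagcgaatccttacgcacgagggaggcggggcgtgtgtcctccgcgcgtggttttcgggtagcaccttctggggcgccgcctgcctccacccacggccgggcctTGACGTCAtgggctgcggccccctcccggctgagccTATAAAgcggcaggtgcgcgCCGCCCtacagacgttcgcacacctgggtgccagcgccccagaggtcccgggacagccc
EREG: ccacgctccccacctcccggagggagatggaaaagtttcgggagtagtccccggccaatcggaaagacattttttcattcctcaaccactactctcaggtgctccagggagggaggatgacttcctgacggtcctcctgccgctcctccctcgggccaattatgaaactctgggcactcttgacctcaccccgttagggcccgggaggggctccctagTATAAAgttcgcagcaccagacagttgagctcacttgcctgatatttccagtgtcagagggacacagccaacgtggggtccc
HBEGF: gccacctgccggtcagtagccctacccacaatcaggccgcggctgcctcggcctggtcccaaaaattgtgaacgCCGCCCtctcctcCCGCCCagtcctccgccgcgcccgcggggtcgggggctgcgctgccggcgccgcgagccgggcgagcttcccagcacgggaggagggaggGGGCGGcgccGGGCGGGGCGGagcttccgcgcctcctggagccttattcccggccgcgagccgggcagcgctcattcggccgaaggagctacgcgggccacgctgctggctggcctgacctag
TGFA: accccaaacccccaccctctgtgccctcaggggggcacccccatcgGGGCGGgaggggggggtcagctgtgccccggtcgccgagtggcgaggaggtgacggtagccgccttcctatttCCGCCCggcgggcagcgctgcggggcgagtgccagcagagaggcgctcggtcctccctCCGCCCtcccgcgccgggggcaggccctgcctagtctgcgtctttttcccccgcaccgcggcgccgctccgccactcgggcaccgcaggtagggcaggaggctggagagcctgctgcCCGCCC

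The AREG window held a CRE at -65, a TATA box at -29 and an Sp1 box at -9, counted from the start site to the first base of the match. EREG held a TATA box at -32 and no other of these motifs. HBEGF held 5 Sp1 boxes, those at -63 and -58 sharing a base, and TGFA held 4, while a second TGFA start site had no match. Of 35116 promoters of the same length, 1.85% held the CRE, 7.71% the AP-1 site, 45% the Sp1 box and 11.5% the TATA box. No motif was shared by all 4 windows. These matches are a description of letters only.

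Total counts ran from 34633755 to 49342659 per library, and 16556 genes passed the filter on low counts. VIM (3674 ± 124 CPM, counts relative to library size, SD, n = 3) and CD44 (859 ± 61.3 CPM) were abundant in untreated cells. EGFR (435 CPM) and KRT18 (301 CPM) were abundant too. Among genes listed as low or absent in this line, PGR had 0 counts in every library and ESR1 at most 9. Untreated CDH1 (0.624 CPM) and EPCAM (1.13 CPM) were scarce, but ERBB2 was at 81.4 CPM. CDH1 was higher at 24 h than in untreated cells (log2 2.33, edgeR adjusted p = 1.06e-06). VIM rose at 8 h (0.26, adjusted p = 6.42e-05) and was below untreated cells at 24 h (-0.12, adjusted p = 0.0201). Of 10 markers of fibroblasts, blood cells and endothelium, 4 were tested, and CD3E was at 0 throughout. Their summed level was 45.5 to 60.0 CPM in untreated libraries, 58.3 to 63.2 CPM at 8 h and 118 to 126 CPM at 24 h. The sum holds opposite moves: at 8 h COL1A1 was higher (log2 1.25, edgeR adjusted p = 5.08e-10, from 13.7 ± 0.49998 to 32.4 ± 0.552 CPM), while PECAM1 (-1.76, adjusted p = 8.9e-07) and PDGFRB (-0.33, adjusted p = 0.0122) were lower. At 24 h PDGFRB (1.47), PECAM1 (1.18) and COL1A1 (0.40) were all higher than in untreated cells, and CD68, with at most 15 counts, did not pass at either time. The part of these markers in the results was not tested. Mitochondrial transcripts took 1.79% to 4.02% of the counts and were highest in the 8 h libraries, and their part in the results was not tested either.

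Most ligands were lower with TEPA, and NRG1 was higher. At 8 h TGFA, EREG, HBEGF and AREG fell and NRG1 rose, that is 4 lower and 1 higher of the 6 ligands tested with edgeR (Benjamini-Hochberg adjusted p under 0.05). At 24 h TGFA, EREG, HBEGF and BTC were lower than in untreated cells and NRG1 was higher. TGFA, EREG, HBEGF and AREG were higher at 24 h than at 8 h. EPGN had too few counts to be tested.

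Many other genes moved as well. At 8 h 49.6% of all tested genes passed, 24.5% lower and 25.2% higher. At 24 h the share was 52.5%, with 26.8% lower and 25.7% higher. Between the times it was 54.8%, with 26% higher and 28.8% lower at 24 h. The median log2 fold change of the 6 ligands was -0.61 at 8 h, -0.33 at 24 h and 0.25 between the times, beside -0.00134, 0.00232 and -0.0155 over all genes.

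With a log2 fold change beyond 0.5 asked for as well, 3 ligands were lower at 8 h (AREG, TGFA and EREG), beside 7.67% of all genes lower, 10.1% higher and 17.8% in all. BTC alone was lower at 24 h by this rule, beside 8.46% lower, 10.2% higher and 18.7% in all. AREG alone was higher at 24 h than at 8 h, beside 10.4% higher, 10.8% lower and 21.2% in all. In bulk RNA, fewer cells that express a gene and less RNA per cell cannot be told apart.

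Levels of different genes were compared per kilobase of exon. In untreated cells HBEGF stood highest at 35.1 ± 0.731 CPM per kb (SD, n = 3), before TGFA (26.6 ± 1.26) and EREG (15.4 ± 0.845). NRG1 (3.96 ± 0.273), AREG (2.93 ± 0.466) and BTC (0.277 ± 0.0411) were lower, and EPGN was lowest (0.00955 ± 0.00834). Neighbours in this order did not overlap between their untreated libraries. By the ratio of the lowest library of the higher gene to the highest library of the lower gene, NRG1 and AREG were closest. Their ranges were 3.65 to 4.13 CPM per kb for NRG1 and 2.39 to 3.21 CPM per kb for AREG. The order of the means was the same at 8 h, at 24 h and with the length of the canonical transcript, an alternative chosen after seeing the data. The rank of NRG1 rests on its length, 21372 exonic bases against 5713 for EREG. Without division by length, untreated NRG1 (84.7 ± 5.83 CPM) was near EREG (88.1 ± 4.83 CPM). Which isoforms the cells expressed is not known from gene counts.

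TGFA is a classical autocrine growth factor of carcinoma cells. Untreated libraries held 5154, 5711 and 5150 counts of TGFA, the 8 h libraries 3041, 2890 and 2907 and the 24 h libraries 5228, 4401 and 3655. On TMM-scaled library sizes these are 137, 125 and 131 CPM without TEPA, 76.0, 75.6 and 79.1 CPM after 8 h and 103, 102 and 102 CPM after 24 h. The groups did not overlap, and the 24 h libraries lay between the others. The edgeR log2 fold change was -0.77 (SE 0.04, adjusted p = 1.83e-09) for 8 h and -0.36 (SE 0.04, adjusted p = 2.05e-06) for 24 h. From 8 h to 24 h TGFA rose by 0.41 on the log2 scale (adjusted p = 5.95e-07).

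**Figure D1:**
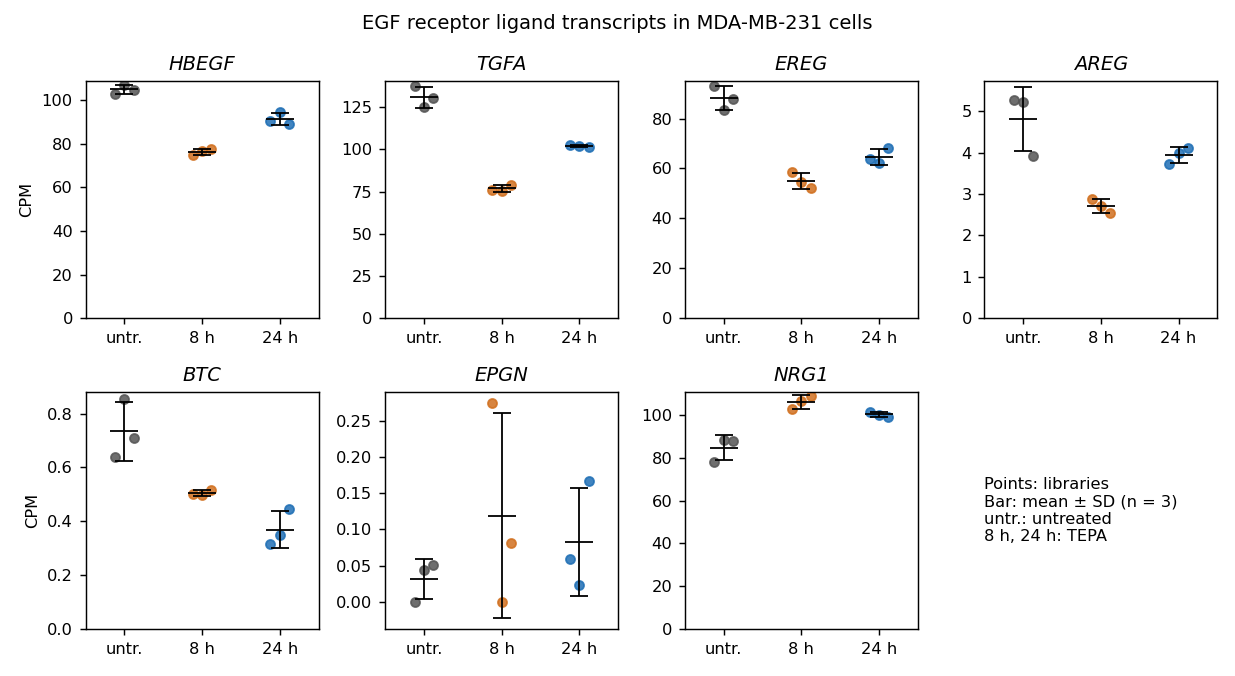
Level of each EGF family ligand in CPM on TMM-scaled library sizes (linear axes) in untreated cells and after 8 h or 24 h of TEPA. Points are libraries, with the mean ± SD of 3 libraries. HBEGF, TGFA, EREG and AREG were lowest at 8 h and BTC at 24 h, while NRG1 was higher in every TEPA library than in any untreated one.

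HBEGF is the heparin-binding ligand, whose precursor stays active on the cell surface. Its level was 103, 107 and 105 CPM in untreated libraries, 74.6, 76.5 and 77.6 CPM in the 8 h libraries and 90.4, 94.4 and 88.8 CPM in the 24 h libraries. Here too no groups overlapped, with 8 h lowest. HBEGF fell by 27.3% at 8 h (log2 -0.46, SE 0.04, edgeR adjusted p = 1.66e-07). At 24 h it was 13.0% below untreated cells (log2 -0.20, adjusted p = 0.000378), a rise of 0.26 on the log2 scale from 8 h (adjusted p = 3.79e-05).

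EREG encodes epiregulin. Untreated libraries were at 93.0, 83.3 and 87.9 CPM, against 58.4, 54.5 and 52.1 CPM after 8 h and 63.7, 62.1 and 68.2 CPM after 24 h. Both TEPA groups lay wholly below the untreated group, and the 8 h group below the 24 h group. Log2 fold changes by edgeR were -0.68 (SE 0.05, adjusted p = 8.55e-08) and -0.45 (SE 0.05, adjusted p = 3.66e-06). The rise between the times was 0.23 (adjusted p = 0.00176).

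AREG, amphiregulin, is the neighbour of EREG and much lower in level. It had 198, 239 and 155 counts in untreated libraries, then 115, 104 and 93 in those of 8 h and 190, 172 and 148 in those of 24 h. As CPM the untreated values were 5.28, 5.23 and 3.93, those of 8 h 2.87, 2.72 and 2.53 and those of 24 h 3.73, 3.98 and 4.12. The 8 h libraries were below all others, whereas untreated replicate 3 lay within the range of the 24 h libraries. AREG fell by 43.7% at 8 h (log2 -0.83, SE 0.13, edgeR adjusted p = 7.26e-05). The log2 fold change of -0.29 at 24 h did not pass (95% interval -0.55 to -0.03, adjusted p = 0.054), but did without untreated replicate 3 (-0.42, adjusted p = 0.00772). From 8 h to 24 h AREG rose by 0.54 on the log2 scale (adjusted p = 0.00266).

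BTC, betacellulin, was scarce. It had 24, 39 and 28 counts in untreated libraries, 20, 19 and 19 in the 8 h libraries and 16, 15 and 16 in the 24 h libraries. Scaled, the untreated libraries were at 0.640, 0.854 and 0.710 CPM, the 8 h libraries at 0.49995, 0.497 and 0.517 CPM and the 24 h libraries at 0.314, 0.347 and 0.445 CPM. The groups did not overlap, and those of 24 h were lowest. BTC was lower at 24 h (log2 -1.02, SE 0.26, edgeR adjusted p = 0.00406). Neither the value of -0.55 at 8 h (95% interval -1.09 to -0.01, adjusted p = 0.0859) nor that of -0.47 between the times (95% interval -1.07 to 0.13, adjusted p = 0.172) passed the test.

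EPGN, epigen, had 0, 2 and 2 counts without TEPA, 11, 0 and 3 counts with 8 h and 3, 1 and 6 counts with 24 h of it. The groups overlapped and no difference was detectable at this depth. Thus the 4 clustered genes ranged per kb from EREG, exceeded by HBEGF and TGFA, to EPGN, the lowest of the 7.

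NRG1, neuregulin 1, lies on chromosome 8 (31639222 to 32855666, hg38), and 189 of its 21372 exonic bases are shared with another gene on the same strand. It had 2925, 4034 and 3464 counts in untreated libraries, 4110, 4080 and 4006 in the 8 h libraries and 5174, 4319 and 3566 in the 24 h libraries. Scaled, NRG1 was at 78.0, 88.3 and 87.8 CPM untreated, 103, 107 and 109 CPM after 8 h and 101, 100.05 and 99.2 CPM after 24 h. All TEPA libraries exceeded all untreated ones. NRG1 was 25.2% higher at 8 h (log2 0.32, SE 0.05, edgeR adjusted p = 3.47e-05) and 18.3% higher at 24 h (log2 0.24, SE 0.05, adjusted p = 0.000424). Between the times the value was -0.08 (95% interval -0.18 to 0.02, adjusted p = 0.148), although those libraries did not overlap.

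**Figure D2:**
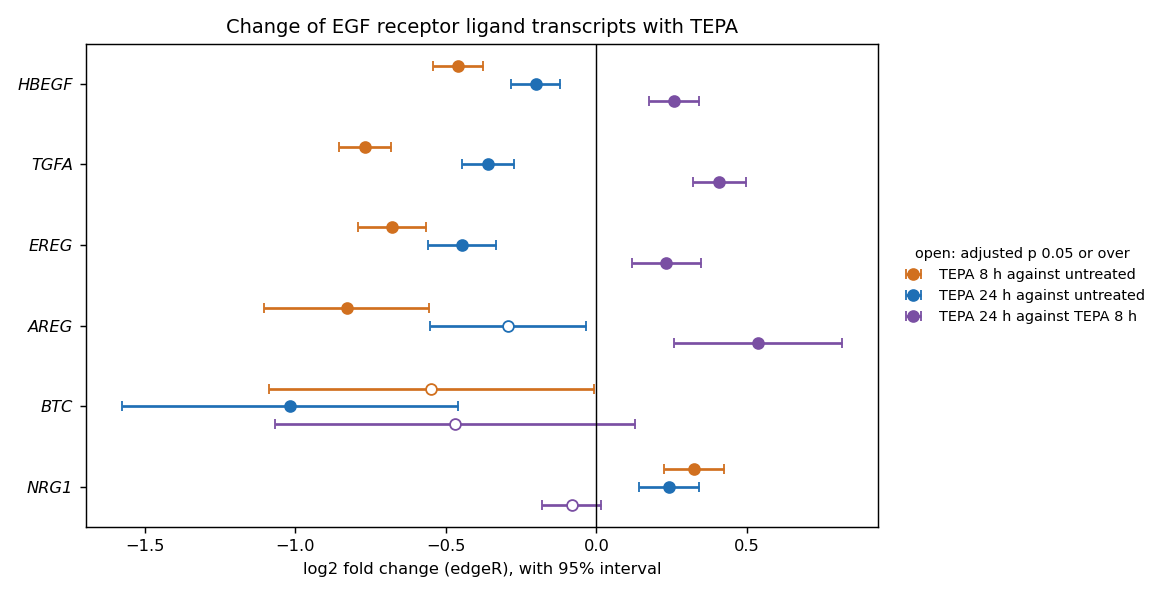
Log2 fold change from edgeR with its 95% interval for the 6 ligands tested, in the 3 comparisons. Open points had an adjusted p of 0.05 or over. TGFA, EREG, HBEGF and AREG were below 0 at 8 h and above 0 from 8 h to 24 h, NRG1 was above 0 at both times, and BTC had the widest intervals.

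TEPA and untreated libraries did not overlap for any of the 6 tested ligands at 8 h, with 5 lower and 1 higher. Of all genes, 57.8% did not overlap there, 28.6% lower and 29.2% higher. At 24 h 5 ligands did not overlap, 4 of them lower, beside 57.2% of all genes (28.9% lower and 28.4% higher). Between the times all 6 were apart, 4 higher at 24 h, beside 62% (29.6% higher and 32.4% lower). No ligand was lower at 24 h than at 8 h by edgeR, with 0 also at an unadjusted p under 0.05 and 0 by DESeq2. Both comparisons with untreated cells share the untreated libraries.

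Summed per kb, the 7 ligands came to 84.3 ± 1.20 CPM per kb in untreated cells, 57.6 ± 0.373 at 8 h and 69.8 ± 0.520 at 24 h (SD, n = 3). HBEGF made up 41.6% ± 1.41 of the sum in untreated cells, 44.3% ± 0.728 at 8 h and 43.7% ± 1.10 at 24 h. For TGFA these shares were 31.6% ± 1.08, 27.1% ± 0.504 and 29.7% ± 0.306. The NRG1 share was 4.71% ± 0.387, 8.62% ± 0.225 and 6.72% ± 0.109, with no overlap between groups. With canonical transcript lengths it was 6.63% ± 0.533, 11.9% ± 0.301 and 9.38% ± 0.150. NRG1 thus took a larger part of a smaller sum in TEPA libraries, as a description without a test.

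**Figure D3:**
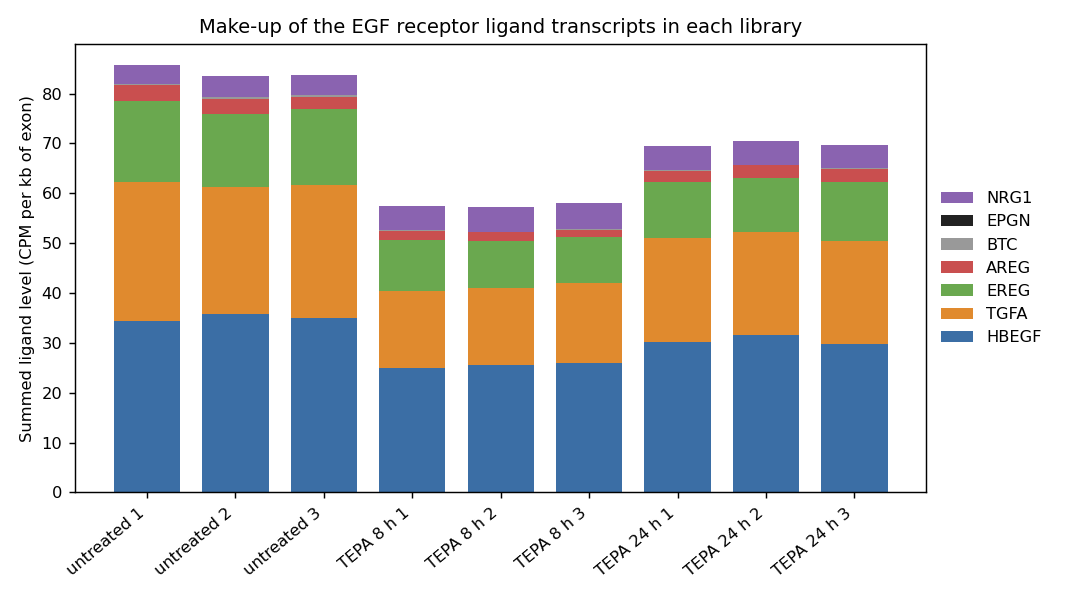
Summed level of the 7 ligands in each library, in CPM per kb of exon, stacked by ligand from 0. HBEGF, TGFA and EREG form most of each bar, the 8 h bars are the lowest, and the NRG1 segment is larger in each TEPA library than in any untreated one.

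The remaining ErbB ligands were scarce. EGF had 67, 94 and 71 counts in untreated libraries, 52, 53 and 59 in the 8 h libraries and 168, 133 and 123 in the 24 h libraries. The 24 h libraries were above all others. EGF was higher at 24 h than in untreated cells (log2 0.79, edgeR adjusted p = 0.000137) and than at 8 h (1.19, adjusted p = 3.41e-06). At 8 h its value was -0.40 (adjusted p = 0.0379), a call lost in 8 alternatives, among them DESeq2 (adjusted p = 0.092), the replicate block (adjusted p = 0.0538) and the fits without untreated replicate 2 (0.133), untreated replicate 3 (0.0508), TEPA 8 h replicate 1 (0.119) or TEPA 8 h replicate 2 (0.0915). NRG2, from 1.49 ± 0.156 CPM, fell at 8 h (-0.80, adjusted p = 0.00677) and remained below untreated cells at 24 h (-0.72, adjusted p = 0.0107). NRG3 and NRG4 had at most 1 and 2 counts in a library and were not tested.

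EGFR, the receptor of TGFA and AREG, was at 391, 466 and 447 CPM in untreated libraries, 483, 484 and 504 CPM in the 8 h libraries and 335, 332 and 333 CPM in the 24 h libraries. It was highest at 8 h and lowest at 24 h, with no overlap. The log2 fold change was -0.38 at 24 h (edgeR adjusted p = 1.22e-05). That of 0.17 at 8 h (adjusted p = 0.00999) did not pass without TEPA 8 h replicate 3 (adjusted p = 0.0571). ERBB2, the partner receptor with no known ligand of its own, was at 81.4 ± 5.11 CPM untreated, 73.2 ± 3.24 CPM at 8 h and 53.0 ± 0.969 CPM at 24 h (log2 -0.62, adjusted p = 5.21e-08). Its value of -0.15 at 8 h (adjusted p = 0.0165) did not pass without untreated replicate 1 (adjusted p = 0.0741) or TEPA 8 h replicate 1 (adjusted p = 0.0746).

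ERBB3 and ERBB4, the receptors that bind NRG1, were near the floor. ERBB3 had 23 to 42 counts per library, with log2 fold changes of -0.15 (adjusted p = 0.626) and -0.58 (adjusted p = 0.0628) by edgeR. The 24 h value passed without untreated replicate 2 (-0.73, adjusted p = 0.0339) and when 10 counts were asked for in every library (adjusted p = 0.0481). ERBB4 had 0 to 7 counts and was not tested.

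Of 15 genes that release or escort the ligands or, as TIMP3 does, inhibit their release, 14 were tested (all but NKD2, at 0 counts). In the counts that follow, TIMP3 is among the lower genes at 8 h and the higher ones at 24 h. After 8 h the lower ones numbered 9 and the higher ones 3 (ADAM15, RHBDF1 and FURIN), and the median gene stood at -0.26 (log2). After 24 h the numbers were 4 and 3, and the median gene stood at -0.03. Over all genes 24.5% were lower and 49.6% passed at 8 h, and 52.5% passed at 24 h, so that 7 of 14 at 24 h is near the share of all genes. ADAM17, the main sheddase of TGFA, AREG and HBEGF, was at 65.9, 57.2 and 58.4 CPM untreated, 50.9, 48.3 and 50.1 CPM at 8 h and 58.2, 61.4 and 59.6 CPM at 24 h. It was lowest at 8 h (-0.28, edgeR adjusted p = 0.000375), and the untreated and 24 h libraries overlapped (-0.02, adjusted p = 0.791). ADAM10, a sheddase of EGF and BTC, had log2 values of -0.38 (adjusted p = 3.96e-06) and -0.04 (adjusted p = 0.492). TIMP3, an inhibitor of ADAM17, fell at 8 h (-1.19, adjusted p = 1.55e-09) and was above untreated cells at 24 h (0.72, adjusted p = 7.44e-08).

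The rhomboid protease RHBDL2 was lower at 8 h (-1.01, edgeR adjusted p = 7.65e-05), and its 24 h value was -0.15 (adjusted p = 0.421). CD9, a tetraspanin that binds the HBEGF precursor, was lower at 8 h (-0.56) and 24 h (-0.16, adjusted p = 0.00924). BACE1, a protease that cuts NRG1, fell by 8 h (-0.25, adjusted p = 0.000637), and more so by 24 h (-0.52, adjusted p = 5.15e-07).

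Among 12 genes listed for restraint of ErbB receptors, 11 were tested (all but CBLC, at 0 counts). After 8 h, 5 fell and 1 rose (CBL, a ubiquitin ligase of EGFR), and at 24 h 3 were lower (SPRY1, SPRY2 and SPRY4) and 5 higher, with medians of -0.05 and 0.06. The 6 of 11 that passed at 8 h are near the 49.6% of all genes, and 8 of 11 passed at 24 h beside 52.5%. SPRY1, a feedback inhibitor of ERK signaling, was lower at both times (-1.15, edgeR adjusted p = 1.5e-08, and -0.62, adjusted p = 3.55e-06). LRIG1, which lowers ErbB receptor protein, went from 42.6 ± 1.16 CPM to 25.9 ± 0.987 CPM at 8 h (-0.72, adjusted p = 3.34e-08) and was at 48.4 ± 2.35 CPM at 24 h (0.19, adjusted p = 0.00463).

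All 15 adaptors and members of the RAS and ERK relay were tested, with 7 lower and 1 higher (SOS1) at 8 h and 5 lower and 1 higher (SOS1) at 24 h. Their medians were -0.10 and -0.08. In all 8 passed at 8 h and 6 at 24 h, near or under the 49.6% and 52.5% of all genes. GAB1, a docking protein downstream of EGFR, fell by 8 h (-0.55, edgeR adjusted p = 9.6e-05) and was also below untreated cells at 24 h (-0.31, adjusted p = 0.00682). GRB7, with 3 to 17 counts per library, was lower at 24 h (-1.73, adjusted p = 0.00495). With each library left out, its value ran from -2.45, without TEPA 24 h replicate 2, to -1.36.

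Of 10 genes used as a transcript readout of MAPK activity, 7 were lower at 8 h (median -0.36) and 7 at 24 h (median -0.34), while EPHA4 and CCND1 were higher at 8 h and EPHA2 at 24 h. The share of lower genes among all tested was 24.5% for 8 h and 26.8% for 24 h. SPRY2 and SPRY4 stand in this list and in that of receptor restraint. PHLDA1 was at 771 ± 39.2 CPM untreated, 488 ± 8.42 CPM at 8 h and 607 ± 10.5 CPM at 24 h (log2 -0.66 and -0.35). The ERK phosphatase DUSP6 had log2 values of -0.76 and -0.46, and DUSP4 of -0.85 and -0.59. ETV4, an ETS transcription factor, was lower at 8 h (-0.53) and lower still at 24 h (-0.86). EPHA4, an ephrin receptor, was higher at 8 h (0.82, edgeR adjusted p = 8.99e-06), and its 24 h value was 0.18 (adjusted p = 0.176).

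**Figure D4:**
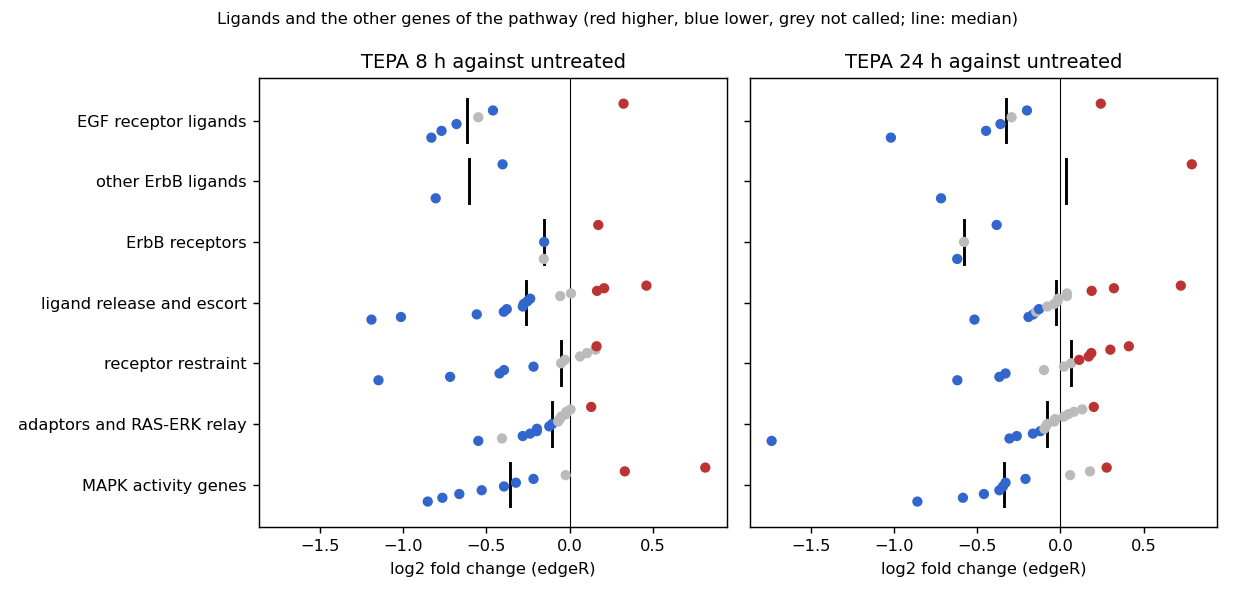
Log2 fold change from edgeR of every tested gene of each list at 8 h and 24 h of TEPA against untreated cells, with the median of each list. Colours separate genes that were higher or lower at an adjusted p under 0.05 from those that did not pass. At 8 h 4 of the 6 ligands and 7 of the 10 MAPK activity genes were lower, beside 24.5% of all tested genes.

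Genes of like pattern were sought among those with a mean of at least 10 CPM, by Pearson's r of log2 CPM over the 9 libraries. The points share libraries that fall into 3 groups in which many genes moved, so r is a description. TGFA was most like PHLDA1 (0.996), PDIA6 (0.996) and SLC37A2 (0.996), of which PHLDA1 is also a MAPK activity gene. HBEGF was nearest to GFPT2 (0.997), ZMYND8 (0.994) and P3H2 (0.991), and EREG to PIP4K2A (0.994), VEZT (0.994) and PFN2 (0.994). For AREG the nearest were COX6C (0.974), TARS1 (0.970) and ARID4A (0.968). For BTC they were TMA16 (0.984), TERF2IP (0.981) and CRYBG3 (0.977), and for NRG1 CARD8 (0.993), ABHD2 (0.989) and CENPX (0.989).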

How the data were processed

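Libraries were made with a stranded mRNA kit and sequenced as read pairs. By the submitters' processing notes and the methods, the authors ran FastQC, HISAT2 on hg38 and featureCounts by gene name over exons, using strand; the deposited values are raw counts. With R 4.3.3 and edgeR 4.0.16, genes were filtered (filterByExpr, minimum count 10), scaled by TMM and fitted over all 9 libraries in a single quasi-likelihood model with Benjamini-Hochberg adjustment over 16556 genes. SE is the log2 fold change over the square root of F. Positions and exon lengths are from GENCODE on hg38, whereas the authors counted reads on an Ensembl annotation. The procedure was run on simulated data in which few genes were changed, and only in the 8 h group. That run cannot show how scaling and calls behave where many genes move, as they did here.

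Alternatives were other scaling (RLE, upper quartile), DESeq2 1.42.0, 2 other filters, only the groups compared, a replicate block and each library left out. Nothing says that replicates were separate cultures, so p-values measure the spread between these libraries only. The least alike pair of replicates was in the untreated group, which serves both comparisons. Chi-square per degree of freedom was 21.4 between the counts of untreated replicates 1 and 2. It was 2.38 to 8.65 for the other pairs within a group. Untreated replicates 2 and 3 (6.65) were more alike than TEPA 24 h replicates 2 and 3 (7.60).

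Members and lists were chosen with earlier results of these data known. Named genes are all ErbB ligands and receptors, ADAM10, ADAM17 and list members that passed the test with log2 beyond 0.5 at either time, of which 26 were tested. The 3 genes nearest in pattern to each ligand are named besides and apart from PHLDA1 are not among the 26. Other named list members were chosen after their values were seen.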

Additional observations from a re-analysis of the deposited data

Results flagged for a closer look

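The change at 24 h differed from the change at 8 h for 22 of 26 named genes tested, 16 of them higher at 24 h, by edgeR's test of 24 h against 8 h. Many of the 26 were named because they changed at 8 h or 24 h, so that this count cannot be read against the share of all genes. Since both changes use the same untreated libraries, that test is the test of their difference. All values are log2, 24 h minus 8 h. The ligands had TGFA 0.41 (adjusted p = 5.95e-07), HBEGF 0.26 (adjusted p = 3.79e-05), EREG 0.23 (adjusted p = 0.00176), AREG 0.54 (adjusted p = 0.00266) and EGF 1.19 (adjusted p = 3.41e-06). The receptors had EGFR -0.56 (adjusted p = 2.23e-07) and ERBB2 -0.47 (adjusted p = 1.04e-06). Genes of ligand release and escort had ADAM10 0.34 (adjusted p = 7.77e-06), ADAM17 0.26 (adjusted p = 0.000528), BACE1 -0.26 (adjusted p = 0.000427), RHBDL2 0.87 (adjusted p = 0.000262) and CD9 0.39 (adjusted p = 5.61e-06). TIMP3, the inhibitor of ADAM17, had 1.91 (adjusted p = 1.45e-11). Downstream and restraining genes had LRIG1 0.90 (adjusted p = 1.5e-09), SPRY1 0.53 (adjusted p = 2.87e-05), GAB1 0.24 (adjusted p = 0.0313) and GRB7 -1.33 (adjusted p = 0.0308). The last 2 depend on the fit: GAB1 did not pass in 3 fits without 1 library, and GRB7 did not pass in 4 such fits, with DESeq2 (adjusted p = 0.062) or with the replicate block (adjusted p = 0.0513). MAPK activity genes had PHLDA1 0.32 (adjusted p = 5.94e-06), DUSP4 0.27 (adjusted p = 0.000575), DUSP6 0.30 (adjusted p = 0.00799), EPHA4 -0.64 (adjusted p = 6.15e-05) and ETV4 -0.33 (adjusted p = 1.41e-05).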

How the results depend on the processing

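For the 6 ligands tested, 233 of 234 alternative values kept their direction and their side of the threshold, the exception being AREG at 24 h without untreated replicate 3, which passed. Over the alternatives the log2 fold change at 8 h was -0.80 to -0.73 for TGFA and 0.27 to 0.36 for NRG1. With a log2 limit of 0.5 the ligands called were 3 in place of 5 at 8 h, 1 in place of 5 at 24 h and 1 in place of 4 between the times. With each library left out they were 5 at 8 h, 5 to 6 at 24 h and 4 between the times. Of all genes, 43% to 48.4%, 45.3% to 52.7% and 48.6% to 51.6% were called in those fits. Same-numbered libraries did not deviate together (r from -0.08 to 0.04 over 9 pairs), so no pairing by number was seen. With so few libraries per group, these values cannot show whether same-numbered libraries were handled together. The replicate block called 5, 5 and 4 ligands, beside 47%, 50.5% and 52.9% of all genes. Of other named genes it took the calls of EGF at 8 h (adjusted p = 0.0538) and GRB7 between the times (adjusted p = 0.0513). Among other named genes, 749 alternative values were alike in direction and call, 20 lost a call, 2 gained a call and 6 changed sign, none of these past the threshold. ADAM17 at 24 h was 0.00824 with upper-quartile factors. With each library left out, ADAM17 at 24 h ran over -0.0579 to 0.0469, ERBB3 at 8 h over -0.30 to 0.0373 and NRG2 between the times over -0.12 to 0.22. GAB1 between the times did not pass without TEPA 8 h replicate 1 (0.0868), TEPA 8 h replicate 3 (0.0942) or TEPA 24 h replicate 3 (adjusted p = 0.132). GRB7 between the times lost its call in 6 alternatives, with DESeq2 at an adjusted p of 0.062 and values of 0.168 and 0.0528 without TEPA 8 h replicates 1 and 3, and 0.145 and 0.0846 without TEPA 24 h replicates 1 and 3, and its log2 value was -2.04 without TEPA 24 h replicate 2. The cause was not tested. Without a filter EPGN had an adjusted p of 0.165, 0.436 and 0.639. Few counts limit BTC, EPGN, ERBB3, ERBB4, NRG2 and GRB7.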
